A study of Oryza sativa with 20 samples.

Results

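The roots of Azucena and Sarali rice were compared gene by gene. The comparison holds the 4 RNA-seq libraries labelled Azucena and the 4 labelled Sarali, which are 8 of the 20 root libraries of a study of aquaporin expression. The other 12 come from Bala, Moddai Karuppan and Niyan Wee. Azucena is an upland tropical japonica cultivar, and the study's title places its Sri Lankan cultivars in a group called Indica II. Each group is defined by its cultivar alone. The labels give no treatment, age or growth condition, and nothing in them says whether the 4 libraries of a cultivar came from separate plants or cultures, so each p-value measures the spread between libraries, which may be technical. In all, 21225 genes passed the filter on low counts and were tested.

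Rice is conventionally divided into japonica and indica groups, which differ in gene content as well as in sequence. Roots take up water and ions through membrane proteins. Aquaporins are the channels that let water, and in some cases silicic acid or other small solutes, cross the plasma membrane (PIP and NIP classes) or the vacuolar membrane (TIP class). Potassium enters through channels such as AKT1, metals through ZIP and NRAMP carriers, and the Casparian strip of the endodermis seals the path between cells. Expansins loosen cell walls as cells elongate. The genome build named in the submitters' processing notes, IRGSP-1.0, is that of Nipponbare, a japonica cultivar. How far reads of an indica cultivar map less well to it was not tested, and it cannot be told apart from a lower transcript level.

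The Azucena libraries held 26139109, 26793802, 26011475 and 28440986 counts, and the Sarali libraries 27965616, 28717725, 29613310 and 27118973. Ribosomal RNA genes took 60.4, 40.8, 42.4 and 53.4% of the counts in Azucena replicates 1 to 4, against 30.9, 64.5, 62.2 and 54.0% in Sarali. The cultivar means were 49.2 ± 9.33% in Azucena and 52.9 ± 15.4% in Sarali (SD, n = 4 each), a difference that the spread covers (exact two-sided permutation p = 0.686, over 70 arrangements whose smallest p is 0.0286). Root markers summed to between 147 and 783 CPM (counts scaled to the library size) in Azucena and between 145 and 451 CPM in Sarali. Leaf and green tissue markers summed to at most 14.6 CPM in Azucena and 12.5 CPM in Sarali, so their levels were low in both.

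Azucena replicate 3 stood apart from the other Azucena libraries, and its values are given separately where they matter. The leading axis of variation among the 8 libraries, with 62.8% of the variance, separated the cultivars, and the next, with 13.8%, separated Azucena replicate 3 from the other 7 libraries. There were 18 genes under 0.2 CPM in Azucena replicates 1, 2 and 4 but over 2 CPM in all 16 libraries of the other cultivars. All 18 reached at least 0.3 CPM in replicate 3, at 5.76 to 48.4% (median 24.9%) of the other cultivars' mean. No gene met that rule when replicate 1, 2 or 4 was the library left aside. The rule then needs replicate 3 under 0.2 CPM, so genes raised in replicate 3 could not meet it. It therefore cannot show whether replicates 1, 2 and 4 differ from replicate 3 in this. Conversely, 46 genes over 3 CPM in Azucena replicates 1, 2 and 4 and under 0.1 CPM in the other cultivars had a median of 62.1% of their usual Azucena level in replicate 3. These limits were chosen after the values were seen. The root marker sum of 783 CPM also belongs to replicate 3. Most of that sum came from the silicon transport genes NIP2-1 and Lsi2, whose values are given below. The cause of these values was not tested.

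**Figure D1:**
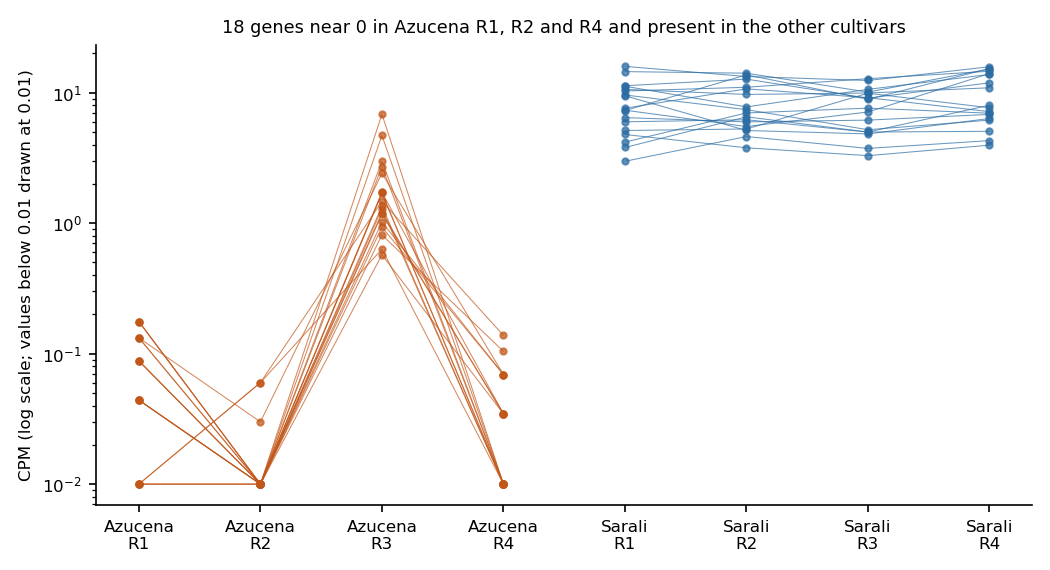
Levels in CPM (log axis) of the 18 genes low in Azucena replicates 1, 2 and 4 and above 2 CPM in every library of the other cultivars, with 1 line per gene and values under 0.01 CPM drawn at 0.01. All 18 lie at or above 0.3 CPM in Azucena replicate 3, at 5.76 to 48.4% of the other cultivars' mean.

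Of the 21225 genes, 3826 differed between Azucena and Sarali roots at an adjusted p under 0.05 (18.0%; edgeR's quasi-likelihood test with Benjamini-Hochberg adjustment). Expression was higher in Azucena for 2078 genes (9.79%) and lower for 1748 (8.24%). A change of 2-fold or more was fitted for 2547 of them (12.0%), with 1572 higher and 975 lower, and a change of 8-fold or more for 1054, with 721 higher and 333 lower. Without Azucena replicate 3, 3656 genes passed, 1975 higher and 1681 lower. The median log2 fold change over all genes was 0.026. Among the 8561 genes with at least 10 CPM in both cultivars the balance turned the other way, with 397 higher and 620 lower in Azucena (11.9% called). Calls were made for 429 of 1043 long non-coding RNAs (41.1%) and for 3104 of 19269 protein-coding genes (16.1%). The 4 Azucena and 4 Sarali libraries did not overlap for 4708 genes (22.2% of all), of which 3386 were among the called. Of the calls over all genes, 2518 (65.8%) held with each of the 8 libraries left out in turn.

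**Figure D2:**
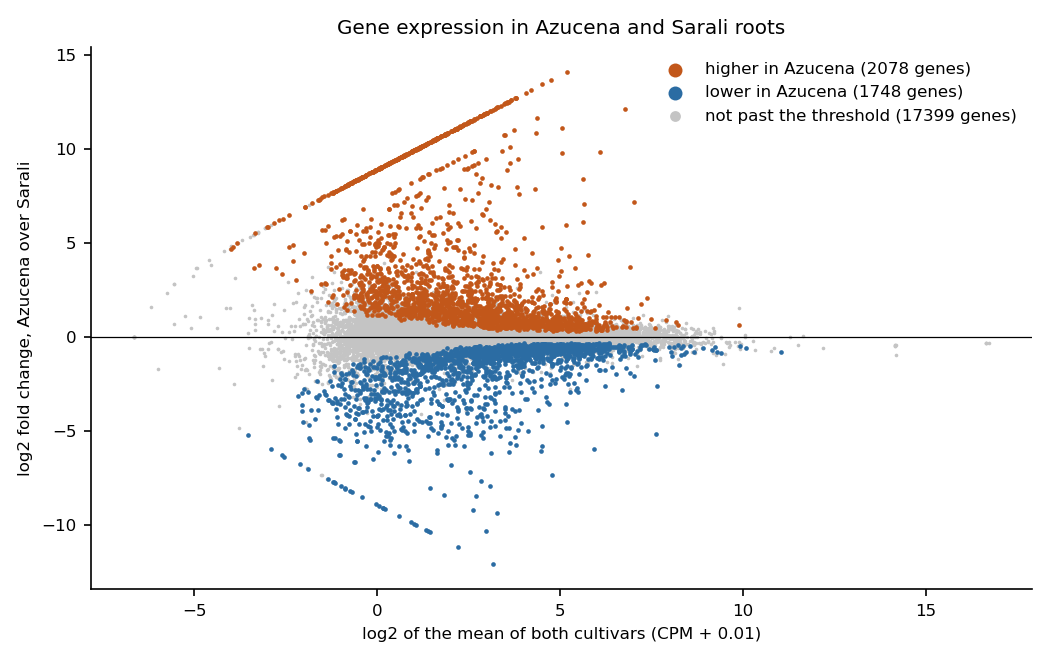
Log2 fold change (Azucena over Sarali) of each tested gene against its mean level on a log scale, with called genes coloured by direction. The diagonal bands are genes with no count in 1 cultivar, whose fitted fold depends on the prior count; 2078 genes were higher and 1748 lower in Azucena.

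For context, Sarali differed from the mean of Bala, Moddai Karuppan and Niyan Wee at 795 genes (3.75%) and Azucena from the same mean at 3751 genes (17.7%). These comparisons share libraries with each other and with the direct one. The mean holds Moddai Karuppan and Niyan Wee, which are Sri Lankan cultivars as Sarali is. The counts therefore do not set Sarali and Azucena on equal terms.

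Of the aquaporins, the subject of the study, all 20 measured members were tested and 1 passed, lower in Azucena. It was the vacuolar channel TIP1-2 (5.00% of the list against 18.0% of all genes). TIP1-2 had 14.2, 6.60, 14.6 and 7.41 CPM in Azucena, against 27.5, 62.2, 36.3 and 70.4 CPM in Sarali. All 4 Azucena values lay below all 4 Sarali values, and the log2 fold change was -2.20 (SE 0.427, adjusted p = 0.000974). The file header assigns replicates 1 and 2 of each cultivar to pool P1 and replicates 3 and 4 to pool P2, without saying what was pooled. Within pools the log2 fold change of TIP1-2 was -2.07 in P1 (adjusted p = 0.0781) and -2.29 in P2 (adjusted p = 0.0200).

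TIP2-2, also a vacuolar channel, had 207, 562, 97.5 and 659 CPM in Azucena and 998, 1080, 1390 and 590 CPM in Sarali. Its groups overlapped only in Azucena replicate 4 and Sarali replicate 4, and the log2 fold change of -1.41 missed the threshold (edgeR adjusted p = 0.0937), whereas DESeq2 called it (adjusted p = 0.0368). TIP1-1, of the same class, averaged 420 ± 261 CPM in Azucena and 803 ± 189 CPM in Sarali (log2 fold change -0.94, adjusted p = 0.288). Among the plasma membrane channels, PIP2-3 had 135, 193, 210 and 151 CPM in Azucena and 125, 130, 42.0 and 46.1 CPM in Sarali. Its groups did not overlap, and its log2 fold change of 1.01 did not pass (adjusted p = 0.160). PIP1-1 averaged 297 ± 66.4 CPM in Azucena and 315 ± 67.3 CPM in Sarali, and PIP1-2 averaged 261 ± 64.6 CPM in Azucena and 357 ± 58.4 CPM in Sarali. PIP2-1, with 366 ± 155 CPM in Azucena and 419 ± 48.0 CPM in Sarali, and PIP2-6, with 146 ± 66.6 CPM in Azucena and 162 ± 35.5 CPM in Sarali, also missed the threshold.

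Several aquaporins had wide spreads within a cultivar. PIP1-3 had 112, 76.0, 319 and 29.8 CPM in Azucena and 328, 621, 109 and 96.8 CPM in Sarali. The silicic acid channel NIP2-1 (also called Lsi1) had 148, 98.9, 385 and 79.0 CPM in Azucena and 198, 265, 100 and 124 CPM in Sarali. Replicate 3 was the highest Azucena library for both, and without it the log2 fold change of NIP2-1 was -0.66 in place of 0.05. TIP2-1 averaged 145 ± 58.5 CPM in Azucena and 126 ± 97.8 CPM in Sarali. PIP2-2 averaged 64.3 ± 7.50 CPM in Azucena and 104 ± 43.5 CPM in Sarali, and SIP1-1, an internal membrane form, 58.6 ± 9.49 CPM in Azucena and 47.8 ± 5.41 CPM in Sarali. TIP4-1 averaged 30.9 ± 11.8 CPM in Azucena and 26.0 ± 2.49 CPM in Sarali.

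The remaining 6 aquaporins averaged below 25 CPM in both cultivars, on a scale that is not divided by gene length. NIP3-1 averaged 15.5 ± 4.04 CPM in Azucena and 21.6 ± 6.36 CPM in Sarali, and NIP2-2 averaged 14.9 ± 8.73 CPM in Azucena and 18.2 ± 8.15 CPM in Sarali. PIP2-4 averaged 11.2 ± 3.52 CPM in Azucena and 18.0 ± 10.6 CPM in Sarali and its neighbour PIP2-5 averaged 4.98 ± 1.89 CPM in Azucena and 12.3 ± 11.2 CPM in Sarali. SIP2-1 averaged 8.94 ± 2.77 CPM in Azucena and 9.41 ± 1.73 CPM in Sarali, and NIP1-2 averaged 1.85 ± 0.402 CPM in Azucena and 2.98 ± 0.704 CPM in Sarali. PIP2-1, PIP2-4 and PIP2-5 are near neighbours of similar sequence, between which counting could split reads. The list's median log2 fold change was -0.37, against 0.026 for all genes, with 5 of 20 members above 0. An unadjusted p under 0.05 was found for 3 members.

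The potassium and sodium transport list was matched by gene name and also holds CIPK kinases. Of its 57 genes, 7 were lower in Azucena and 0 higher (12.3% called, against 18.0% of all genes, list median -0.13). Among the 7, only AKT1 and HAK23 are themselves a channel or transporter, and the others are CIPK kinases. At an unadjusted p under 0.05, 4 members were higher, and DESeq2 called 10 members in all. AKT1, the inward potassium channel of the root, had 20.1, 35.2, 7.46 and 21.8 CPM in Azucena and 163, 113, 111 and 127 CPM in Sarali. Every Azucena library lay below every Sarali library, and the fitted log2 fold change was -2.60 (SE 0.408, adjusted p = 0.000125). CIPK23, the kinase that activates AKT1, was lower by a smaller amount, at 83.1 ± 7.30 CPM in Azucena and 116 ± 15.4 CPM in Sarali (log2 fold change -0.48, adjusted p = 0.0354), and its call ended in 6 of the 8 fits without 1 library, with an adjusted p of up to 0.129.

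CIPK24, the rice SOS2 kinase of the sodium export pathway, had 20.2, 15.9, 18.3 and 14.6 CPM in Azucena and 38.2, 33.3, 38.5 and 38.7 CPM in Sarali (log2 fold change -1.11, adjusted p = 9.63e-06). The potassium transporter HAK23 averaged 16.1 ± 4.70 CPM in Azucena and 34.4 ± 7.28 CPM in Sarali (adjusted p = 0.00202), and the kinase CIPK17 1.66 ± 0.424 CPM in Azucena and 4.96 ± 1.73 CPM in Sarali (adjusted p = 0.00597). CIPK33 (adjusted p = 0.00178) and CIPK32 (adjusted p = 0.0198, or 0.0505 without Sarali replicate 2) were lower too. They are duplicates on chromosomes 11 and 12 between which reads may be split. With 1 library left out, the calls in the list numbered from 5 (without Sarali replicate 2) to 8 (without Azucena replicate 2).

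Of 45 metal acquisition genes, 4 were higher and 6 lower in Azucena (22.2% called, list median -0.08), a share of calls near the 18.0% of all genes. The lower ones were the metal tolerance protein family member MTP4 (5.34 ± 1.22 CPM in Azucena, 14.7 ± 1.87 CPM in Sarali, adjusted p = 0.000376), the NRAMP carrier NRAMP4 (22.5 ± 6.28 CPM in Azucena and 41.6 ± 5.45 CPM in Sarali, adjusted p = 0.00542), the zinc and iron carrier family members ZIP2 (28.3 ± 11.1 CPM in Azucena and 62.9 ± 9.72 CPM in Sarali, adjusted p = 0.00822), ZIP1 and ZIP6, and the metal chelate transporter YSL6. The higher ones were NRAMP6 (13.6 ± 2.94 CPM in Azucena, 6.58 ± 1.35 CPM in Sarali, adjusted p = 0.0118), ZIP3, ZIP4 and the vacuolar iron transporter VIT1. Of these 10 calls, those of MTP4, NRAMP4, ZIP2 and NRAMP6 held with each library left out. The others ended with at least 1 library missing, at adjusted p of up to 0.0670 for ZIP1 (without Sarali replicate 1), 0.104 for ZIP6 (without Azucena replicate 2), 0.0627 for YSL6, 0.131 for ZIP3 and 0.0699 for ZIP4 (all without Sarali replicate 4), and 0.0715 for VIT1 (without Azucena replicate 3). Without Azucena replicate 3 the list had 1 higher and 8 lower.

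None of 31 ammonium, nitrate and phosphate transport genes passed in edgeR's test, with 5 at an unadjusted p under 0.05 and 2 called by DESeq2. The phosphate starvation regulator PHR2 had 32.6, 29.3, 31.3 and 29.4 CPM in Azucena and 37.4, 37.0, 35.7 and 38.0 CPM in Sarali, without overlap (adjusted p = 0.0676). The phosphate transporter PHT1-6 averaged 3.01 ± 1.18 CPM in Azucena and 0.697 ± 0.555 CPM in Sarali (adjusted p = 0.0777). The 3 silicon transport genes, with the efflux carrier Lsi2 at 130 ± 120 CPM in Azucena and 82.8 ± 63.2 CPM in Sarali, gave 0 calls in edgeR or DESeq2 and 0 at an unadjusted p under 0.05. Lsi2 reached 307 CPM in Azucena replicate 3, against at most 96.6 CPM in the other Azucena libraries, and its log2 fold change was 0.65 with that library and -0.23 without it.

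Of the 12 ABC transporters, 8.33% were called, against 18.0% of all genes. The PDR-type carrier ABCG53 was higher in Azucena, at 17.6 ± 6.49 CPM, against 5.62 ± 1.50 CPM in Sarali (adjusted p = 0.00597).

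The expansins that passed were all higher in Azucena. Of 27, 10 were higher in Azucena and 0 lower (37.0% called; 9.79% of all genes were higher), with 25 log2 fold changes above 0, a list median of 1.20 and 0 lower at an unadjusted p under 0.05. DESeq2 called 15. The widest difference was in EXPA32, with 9.06, 13.6, 7.04 and 14.2 CPM in Azucena and 0, 0, 0.0832 and 0 CPM in Sarali. This rests on 1303 counts in Azucena and 2 in Sarali, a ratio of mean CPM of 527 (exact 95% interval 146 to 4360, counting error only; adjusted p = 7.43e-05). EXPA1 had 3.25, 3.63, 1.44 and 12.8 CPM in Azucena and 1.18, 0.0932, 0.374 and 0.183 CPM in Sarali (log2 fold change 3.43, adjusted p = 0.00336).

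The beta-expansin EXPB11 had 7.70, 10.3, 14.6 and 8.44 CPM in Azucena and 2.57, 2.14, 2.83 and 3.37 CPM in Sarali (log2 fold change 1.91, SE 0.409, adjusted p = 0.00225). EXPB2 averaged 11.2 ± 2.41 CPM in Azucena and 3.95 ± 1.59 CPM in Sarali (adjusted p = 0.00875). Its neighbour EXPB4 averaged 29.6 ± 10.5 CPM in Azucena and 16.0 ± 3.22 CPM in Sarali (adjusted p = 0.0173), and reads of the pair may be split between them. EXPA12 averaged 4.64 ± 2.13 CPM in Azucena and 0.952 ± 0.920 CPM in Sarali (adjusted p = 0.0125). EXPA4, EXPA8, EXPA11 and EXPA33 were higher as well.

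The expansin count depended on the libraries, from 7 calls (without Azucena replicate 4 or without Sarali replicate 2) to 14 (without Azucena replicate 3), all higher. The calls of EXPA8 (adjusted p = 0.0571) and EXPA11 (adjusted p = 0.0531) ended without Azucena replicate 3, and that of EXPA33 without Sarali replicate 4 (adjusted p = 0.107). Those of EXPA4 (adjusted p = 0.111) and EXPB4 (adjusted p = 0.0776) ended without Azucena replicate 4. Of the 8 fits without 1 library, the call ended in 6 for EXPA33, 4 for EXPA4 and 3 for EXPB4. It ended in 2 for EXPA8 and in 2 for EXPA11. Many expansins are expressed mainly in elongating cells. Fewer cells of a type and less RNA per cell cannot be told apart in these bulk samples.

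**Figure D3:**
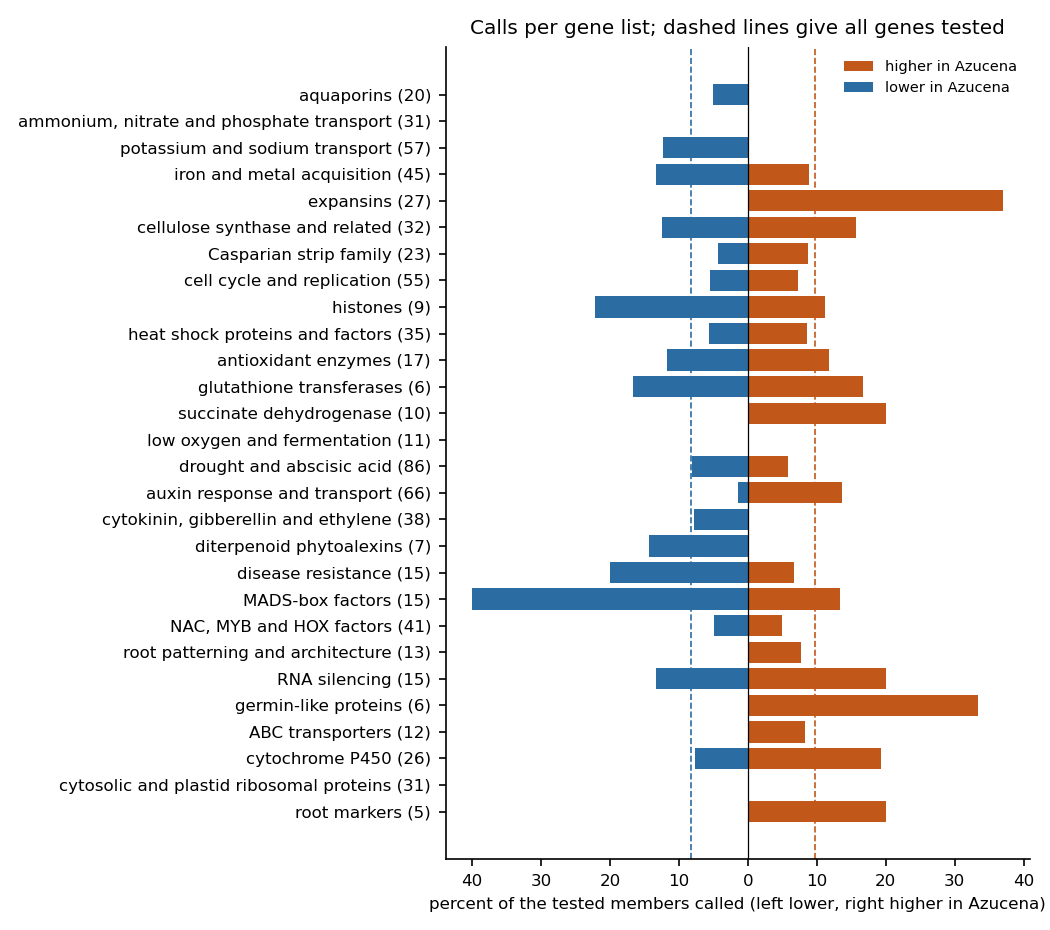
Percent of each list's tested members higher and lower in Azucena, for lists with at least 5 tested members; dashed lines mark the shares over all tested genes, 9.79% higher and 8.24% lower. Expansins have 10 of 27 higher and none lower, MADS-box factors 2 of 15 higher and 6 lower.

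The cellulose synthase superfamily was split, with 5 of 32 higher and 4 lower in Azucena (28.1% called, against 18.0% of all genes). CSLE6, of a subfamily whose product is not settled, had 2.90, 4.50, 1.84 and 5.05 CPM in Azucena and 27.3, 19.1, 32.8 and 28.7 CPM in Sarali (log2 fold change -2.92, SE 0.444, adjusted p = 9.20e-05). CSLE6 averaged 24.3 CPM in Moddai Karuppan and 19.2 CPM in Niyan Wee, within or near the range of the Sarali libraries, and 0.173 CPM in Bala. The mannan synthase family member CSLA1 averaged 60.0 ± 5.92 CPM in Azucena and 30.2 ± 4.24 CPM in Sarali (adjusted p = 7.94e-05). CSLH1, of a mixed-linkage glucan subfamily, averaged 40.6 ± 17.4 CPM in Azucena and 88.2 ± 11.6 CPM in Sarali (adjusted p = 0.0111), and the root hair gene CSLD1 averaged 2.02 ± 0.465 CPM in Azucena and 0.245 ± 0.238 CPM in Sarali (adjusted p = 0.0111). These 4 calls held with each library left out. The other 5, CSLA5 and CESA2 lower and CSLC7, CSLF3 and CSLD4 higher, did not. Their adjusted p reached 0.0784 for CSLA5 (without Azucena replicate 4), 0.114 for CESA2 (without Azucena replicate 1), 0.108 for CSLC7 and 0.115 for CSLF3 (both without Azucena replicate 3), and 0.104 for CSLD4 (without Sarali replicate 1). Of the 8 fits without 1 library, the call ended in 4 for CSLA5, 6 for CESA2 and 6 for CSLC7. It ended in 7 for CSLF3 and 5 for CSLD4.

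The Casparian strip family list, which also holds CASP-like (CASPL) genes, gave 3 calls of 23 (13.0%, against 18.0% of all genes). All 3 ended without Azucena replicate 3, and all 3 also ended without Sarali replicate 4. CASP1, a scaffold protein of the strip, had 28.8, 26.7, 79.3 and 18.7 CPM in Azucena and 18.0, 9.23, 2.50 and 2.13 CPM in Sarali (log2 fold change 2.26, adjusted p = 0.0201). Without replicate 3 its log2 fold change was 1.62 (adjusted p = 0.0880). CASPL1D1 was higher and CASPL2C1 lower, with adjusted p of 0.0477 and 0.0341. CASP1 was also the 1 call among the 5 root markers. Of 13 root patterning genes, the homeobox factor WOX6 was higher, at 2.19 ± 1.52 CPM in Azucena and 0.406 ± 0.267 CPM in Sarali (adjusted p = 0.00459).

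Single germin-like and BURP-domain genes held some of the largest folds. GER3, a germin-like protein, had 12.6, 22.4, 3.97 and 19.1 CPM in Azucena and 0, 0.140, 0.0416 and 0 CPM in Sarali (log2 fold change 8.45, SE 0.942, adjusted p = 2.54e-06). With so few counts in Sarali, the size of the GER3 fold is uncertain. GER4 had 92.3, 87.9, 168 and 113 CPM in Azucena and 65.6, 52.2, 39.2 and 23.6 CPM in Sarali (adjusted p = 0.0384, or 0.118 without Sarali replicate 4). These were 2 of 6 germin-like genes (33.3% called, against 18.0% of all genes, list median -0.07), and 1 passed without Azucena replicate 3. Of 3 BURP-domain genes tested, 1 was higher and 1 lower (66.7% called). BURP02 had 53.3, 131, 3.31 and 94.5 CPM in Azucena, against 0.436, 2.19, 0.915 and 1.17 CPM in Sarali. Replicate 3 lay far below the other Azucena libraries but above all of Sarali (log2 fold change 5.95, adjusted p = 5.32e-05). BURP16 went the other way, with 0.923, 0.0600, 2.05 and 0.242 CPM in Azucena and 24.2, 37.1, 52.8 and 66.1 CPM in Sarali (log2 fold change -5.77, adjusted p = 2.59e-06).

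Succinate dehydrogenase, complex II of the respiratory chain, had 2 of 10 genes higher in Azucena and 0 lower. The 20.0% called was near the 18.0% of all genes, and 3 had an unadjusted p under 0.05, all higher. The plant-specific subunit gene SDH7 had 102, 106, 111 and 95.1 CPM in Azucena and 5.90, 5.31, 4.53 and 4.54 CPM in Sarali. The replicates of each cultivar lay close together, and the log2 fold change was 4.35 (SE 0.243, adjusted p = 7.30e-10). The membrane anchor gene SDH3-2 averaged 47.7 ± 3.93 CPM in Azucena and 11.3 ± 1.21 CPM in Sarali, without overlap (log2 fold change 2.07, SE 0.149, adjusted p = 1.15e-08).

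**Figure D4:**
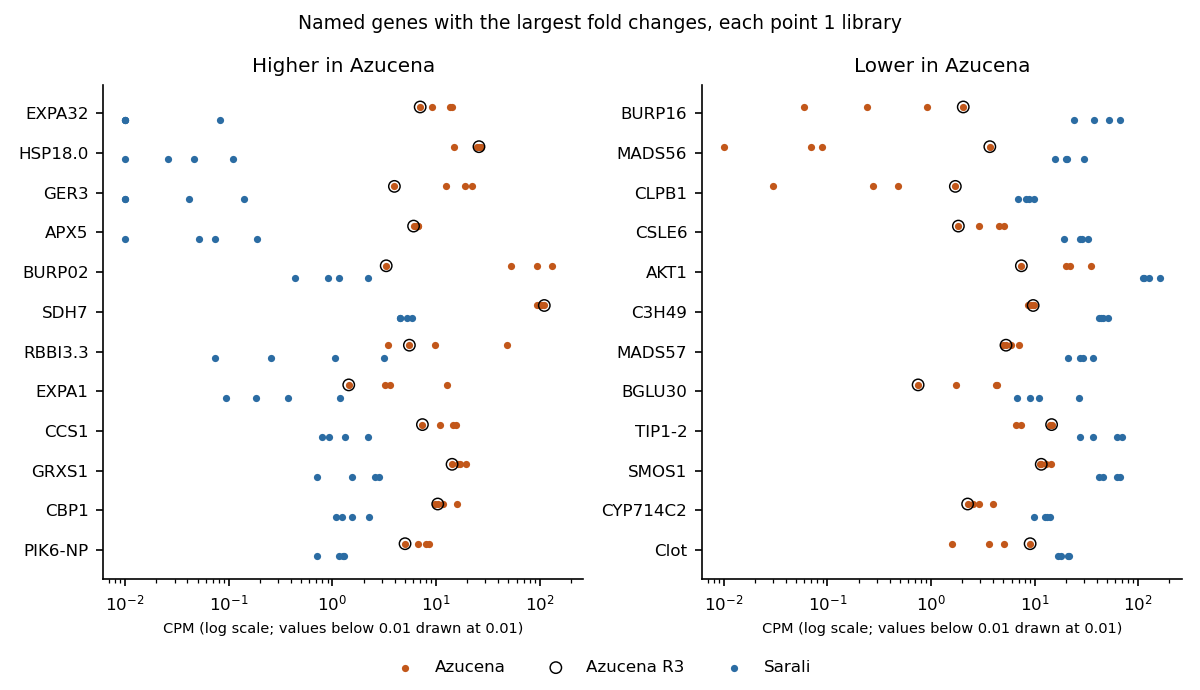
Level in CPM (log axis) of named genes in each of the 4 Azucena and 4 Sarali libraries; circles mark Azucena replicate 3. For SDH7 the Azucena libraries lie between 95.1 and 111 CPM and the Sarali libraries between 4.53 and 5.90 CPM.

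Antioxidant enzymes had 2 of 17 genes higher and 2 lower (23.5% called, against 18.0% of all genes). The mitochondrial manganese superoxide dismutase RMSOD1 had 92.0, 119, 90.8 and 108 CPM in Azucena and 27.7, 34.8, 30.4 and 31.8 CPM in Sarali (log2 fold change 1.72, SE 0.255, adjusted p = 7.35e-05). The ascorbate peroxidase APX5 averaged 6.51 ± 0.316 CPM in Azucena and 0.0778 ± 0.0787 CPM in Sarali (adjusted p = 0.000345). The catalase CATB averaged 233 ± 16.9 CPM in Azucena and 440 ± 24.6 CPM in Sarali (adjusted p = 0.000259). The plastid copper/zinc superoxide dismutase sodCp averaged 50.5 ± 8.67 CPM in Azucena and 100 ± 9.86 CPM in Sarali (adjusted p = 0.00276), and it is the neighbour of EXPA32, which moved in the opposite direction.

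Other redox genes outside that list were chosen by size or p alone. The glutaredoxin GRXS1 had 19.3, 16.4, 14.3 and 17.1 CPM in Azucena and 0.719, 1.54, 2.79 and 2.60 CPM in Sarali (log2 fold change 3.14, adjusted p = 4.18e-05). GSH1-1, which encodes the entry enzyme of glutathione synthesis, averaged 64.1 ± 6.64 CPM in Azucena and 40.2 ± 1.68 CPM in Sarali (adjusted p = 0.000935), and the 6-phosphogluconate dehydrogenase G6PGH2 53.4 ± 10.4 CPM in Azucena and 26.1 ± 4.07 CPM in Sarali (adjusted p = 0.000198). The thioredoxin-like Clot was lower, at 4.85 ± 3.15 CPM in Azucena and 19.2 ± 2.24 CPM in Sarali (adjusted p = 0.000143). Of 6 glutathione transferases, 33.3% were called, against 18.0% of all genes. GSTU6 was higher at 14.5 ± 3.50 CPM in Azucena and 2.99 ± 0.274 CPM in Sarali (adjusted p = 0.000149). GST-I was lower (adjusted p = 0.0282, or 0.134 without Sarali replicate 1).

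The 11 low oxygen and fermentation genes gave 0 calls in edgeR and in DESeq2, with 1 at an unadjusted p under 0.05. Alcohol dehydrogenase gene Adh2 had 245, 229, 581 and 88.4 CPM in Azucena and 168, 310, 86.3 and 54.4 CPM in Sarali, and ADH1 averaged 79.4 ± 33.1 CPM in Azucena and 63.6 ± 10.7 CPM in Sarali. Azucena replicate 3 was the highest of the 8 libraries for Adh2.

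Heat shock genes had 3 of 35 higher and 2 lower (14.3% called, against 18.0% of all genes). The small heat shock protein HSP18.0 had 14.9, 25.0, 26.0 and 27.5 CPM in Azucena and 0.0257, 0.0466, 0 and 0.110 CPM in Sarali (log2 fold change 8.89, SE 0.707, adjusted p = 4.44e-08). The Sarali values of HSP18.0 rest on very few counts, so the size of its fold is uncertain. The disaggregating chaperone CLPB1 had 0.484, 0.0300, 1.72 and 0.277 CPM in Azucena and 8.78, 8.20, 6.95 and 9.78 CPM in Sarali (log2 fold change -3.72, adjusted p = 8.19e-05). HSP17.9A was higher (3.37 ± 0.759 CPM in Azucena, 0.936 ± 0.768 CPM in Sarali, adjusted p = 0.00827) and the heat shock factor HSFC2B was lower (1.74 ± 0.729 CPM in Azucena and 4.21 ± 1.19 CPM in Sarali, adjusted p = 0.00855). HSP17.9B was higher at an adjusted p of 0.0356, or 0.110 without Sarali replicate 4, and its call ended in 6 of the 8 fits without 1 library.

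Of 66 auxin genes, 9 were higher and 1 lower (15.2% called, against 18.0% of all genes; list median 0.10). The lower gene was the repressor IAA3, with 29.3, 32.4, 49.4 and 26.0 CPM in Azucena and 153, 111, 87.8 and 109 CPM in Sarali (log2 fold change -1.75, SE 0.189, adjusted p = 1.82e-06). The auxin-conjugating enzyme gene GH3.7 had 6.55, 8.27, 4.51 and 8.41 CPM in Azucena and 1.85, 1.54, 1.54 and 1.65 CPM in Sarali (log2 fold change 2.07, adjusted p = 4.24e-06). IAA7 averaged 12.8 ± 2.85 CPM in Azucena and 4.66 ± 0.839 CPM in Sarali (adjusted p = 0.000287), and IAA12 30.6 ± 6.53 CPM in Azucena and 15.9 ± 2.56 CPM in Sarali (adjusted p = 0.00167).

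IAA30 averaged 74.8 ± 8.96 CPM in Azucena and 41.6 ± 2.92 CPM in Sarali (adjusted p = 0.00209). The adjacent and similar IAA31 was higher as well, with an adjusted p of 0.0261, or 0.0849 without Azucena replicate 2. The auxin efflux carrier PIN2, a root tip gene, had 14.9, 13.4, 33.5 and 25.1 CPM in Azucena and 3.29, 5.55, 16.4 and 4.43 CPM in Sarali (adjusted p = 0.0351, or 0.106 without Sarali replicate 4). Replicate 3 was the highest library in each cultivar. ARF1, IAA13 and IAA23 made up the 9, and their adjusted p reached 0.132 for ARF1 (without Sarali replicate 3), 0.0863 for IAA13 (without Azucena replicate 3) and 0.0646 for IAA23 (without Azucena replicate 2). Of the 8 fits without 1 library, the call ended in 6 for ARF1, 3 for IAA13 and 3 for IAA23. The count of calls was lowest without Sarali replicate 4, at 5 higher and 1 lower.

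Cytochrome P450 genes had 5 of 26 higher and 2 lower (26.9% called, against 18.0% of all genes, list median 0.61). CYP90A4, of brassinosteroid synthesis, averaged 5.05 ± 1.06 CPM in Azucena and 2.30 ± 0.361 CPM in Sarali (adjusted p = 0.000465). CYP90B2, the DWARF4 homologue of the same pathway, had 15.2, 18.3, 51.9 and 13.0 CPM in Azucena and 6.88, 13.2, 7.99 and 5.13 CPM in Sarali (adjusted p = 0.0105), with an adjusted p of 0.0695 without Azucena replicate 3. CYP85A1 (adjusted p = 0.0290, or 0.149 without Azucena replicate 2) and CYP90A3 (adjusted p = 0.0391, or 0.110 without Azucena replicate 4) were higher too, and CYP90A3 and CYP90A4 are duplicates. CYP87A3 averaged 1.84 ± 0.503 CPM in Azucena and 0.319 ± 0.202 CPM in Sarali (adjusted p = 0.00865). CYP714C2 had 2.55, 2.94, 2.26 and 4.01 CPM in Azucena and 12.6, 9.88, 13.1 and 14.1 CPM in Sarali (log2 fold change -2.08, adjusted p = 7.36e-06). Its neighbour CYP714C1 was lower too (adjusted p = 0.0203, or 0.0641 without Azucena replicate 1).

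SMOS1, an AP2-type factor that promotes organ size in the brassinosteroid and auxin responses of rice, had 11.3, 12.8, 11.6 and 14.3 CPM in Azucena and 41.8, 46.0, 66.8 and 61.9 CPM in Sarali (log2 fold change -2.12, SE 0.214, adjusted p = 8.14e-07). It was named for its size and p and belongs to none of the lists.

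Cytokinin, gibberellin and ethylene genes gave 3 calls of 38, all lower (7.89%, against 18.0% of all genes), with 1 member higher at an unadjusted p under 0.05. All 3 were type-B response regulators, the transcription factors that carry out the cytokinin response. ORR5 had 0, 0, 0.331 and 0 CPM in Azucena and 3.18, 2.66, 2.04 and 2.35 CPM in Sarali (adjusted p = 0.00468), and its only Azucena counts came from replicate 3. ORR3 averaged 26.2 ± 2.43 CPM in Azucena and 36.4 ± 4.34 CPM in Sarali (adjusted p = 0.00756), and ORR2 8.67 ± 0.943 CPM in Azucena and 12.4 ± 2.53 CPM in Sarali (adjusted p = 0.0497, or 0.182 without Sarali replicate 1). The call of ORR2 ended in 6 of the 8 fits without 1 library.

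Drought and abscisic acid genes had 5 of 86 higher and 7 lower (14.0% called, against 18.0% of all genes, list median -0.02). The list was matched by gene name, and most of its calls were type 2C protein phosphatases. Only some of that family repress abscisic acid signalling, so the split does not describe that pathway alone. PP2C67 averaged 20.3 ± 1.53 CPM in Azucena and 8.27 ± 1.06 CPM in Sarali (adjusted p = 8.19e-05), and PP2C65 6.95 ± 0.585 CPM in Azucena and 4.26 ± 0.942 CPM in Sarali (adjusted p = 0.0127). PP2C09 averaged 13.4 ± 3.24 CPM in Azucena and 21.8 ± 1.92 CPM in Sarali (adjusted p = 0.00627), PP2C10 23.7 ± 1.54 CPM in Azucena and 37.8 ± 3.21 CPM in Sarali (adjusted p = 0.00668), and PP2C50 8.66 ± 1.57 CPM in Azucena and 14.0 ± 1.50 CPM in Sarali (adjusted p = 0.00859). PP2C29 had 0.528, 0.510, 4.30 and 0.484 CPM in Azucena and 8.09, 8.16, 3.74 and 7.51 CPM in Sarali (adjusted p = 0.00966), so replicate 3 of each cultivar lay away from its group and the groups overlapped there.

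The kinase SAPK4 was lower, at 81.0 ± 17.4 CPM in Azucena and 135 ± 22.1 CPM in Sarali (adjusted p = 0.00597). The lectin gene salT, named for its induction by salt, had 152, 128, 8.67 and 74.2 CPM in Azucena and 13.9, 15.2, 18.5 and 21.1 CPM in Sarali (log2 fold change 2.40, adjusted p = 0.00533). Azucena replicate 3 lay below all Sarali libraries for salT while the other 3 Azucena libraries lay above them. PP2C15 and SAPK7 (higher) and PP2C64 and PP2C70 (lower) each lost the call without at least 1 library, at adjusted p of up to 0.0587 (without Sarali replicate 2), 0.143 (without Sarali replicate 1), 0.150 (without Azucena replicate 4) and 0.0621 (without Sarali replicate 1) in that order.

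BADH2, the betaine aldehyde dehydrogenase gene whose inactive alleles make rice fragrant, had 15.5, 14.8, 28.3 and 16.6 CPM in Azucena and 86.9, 72.8, 63.3 and 70.9 CPM in Sarali (log2 fold change -1.96, SE 0.178, adjusted p = 2.26e-07). Replicate 3 was the highest Azucena library and still below every Sarali library.

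MADS-box factors had the highest share of calls among the lists of 5 or more genes. In Azucena 2 of 15 were higher and 6 lower (53.3% called, against 18.0% of all genes, list median -0.30). MADS56, of the SOC1 type of flowering regulators, had 0.0879, 0, 3.70 and 0.0692 CPM in Azucena and 20.3, 29.8, 20.5 and 15.6 CPM in Sarali. Its log2 fold change was -4.42 with Azucena replicate 3 and -8.70 without it (adjusted p = 0.00195 with all libraries). Bala averaged 0.433 CPM of MADS56, Moddai Karuppan 18.0 CPM and Niyan Wee 20.8 CPM.

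MADS57, of the AGL17 type expressed in roots, had 5.01, 7.11, 5.30 and 5.92 CPM in Azucena and 27.3, 20.9, 29.2 and 37.0 CPM in Sarali (log2 fold change -2.29, adjusted p = 4.19e-05). MADS25 and MADS23, of the same type, were higher, MADS25 at 5.95 ± 1.37 CPM in Azucena and 2.20 ± 1.27 CPM in Sarali (adjusted p = 0.00571) and MADS23 at 6.15 ± 0.501 CPM in Azucena and 2.08 ± 0.975 CPM in Sarali (adjusted p = 0.00788). MADS16 and MADS2 belong to the floral B class. MADS16 was lower at 15.9 ± 4.92 CPM in Azucena and 58.8 ± 25.6 CPM in Sarali (adjusted p = 0.00705), MADS30 at 3.47 ± 0.374 CPM in Azucena and 6.77 ± 1.64 CPM in Sarali (adjusted p = 0.00255) and MADS2 at 1.60 ± 0.0193 CPM in Azucena and 3.39 ± 1.07 CPM in Sarali (adjusted p = 0.0103). MADS55 was lower as well (adjusted p = 0.0187, or 0.0647 without Sarali replicate 1).

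NAC, MYB and HOX factors gave 4 calls of 41 (9.76%, against 18.0% of all genes). HOX9, which belongs to the class that patterns vascular tissue, averaged 19.9 ± 4.72 CPM in Azucena and 32.4 ± 0.889 CPM in Sarali (adjusted p = 0.00305), and NAC2 was lower too (adjusted p = 0.0101, or 0.0566 without Sarali replicate 1). WOX6 and HOX12 were higher, and the call of HOX12 ended without Azucena replicate 3 (adjusted p = 0.106). None of 4 WRKY factors passed in edgeR or DESeq2, with 1 at an unadjusted p under 0.05. Outside the lists, the CCCH zinc finger genes C3H49 and C3H27 were lower, C3H49 at 9.38 ± 0.573 CPM in Azucena and 45.8 ± 3.68 CPM in Sarali (adjusted p = 1.48e-09) and C3H27 at 15.7 ± 4.57 CPM in Azucena and 61.2 ± 10.1 CPM in Sarali (adjusted p = 2.26e-07).

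Cell cycle and replication genes had 4 of 55 higher and 3 lower (12.7% called, against 18.0% of all genes, list median 0.21). The cyclin CYCD5-3 averaged 13.6 ± 1.30 CPM in Azucena and 4.23 ± 1.05 CPM in Sarali (adjusted p = 0.000157), the origin recognition subunit ORC6 7.31 ± 0.980 CPM in Azucena and 2.15 ± 0.610 CPM in Sarali (adjusted p = 0.000250), and the mitotic kinase CDKB2-1 27.9 ± 4.51 CPM in Azucena and 15.5 ± 2.91 CPM in Sarali (adjusted p = 0.00583). The CDK-activating kinase family member CDKF-1 had 20.4, 17.3, 18.4 and 15.5 CPM in Azucena and 28.5, 29.2, 35.5 and 34.1 CPM in Sarali (adjusted p = 0.000392), and ORC5 2.50 ± 1.21 CPM in Azucena and 6.99 ± 2.00 CPM in Sarali (adjusted p = 0.00658). The replicative helicase subunit MCM6 was higher (adjusted p = 0.0313, or 0.109 without Azucena replicate 3) and CYCA1-4 lower (adjusted p = 0.0208, or 0.0625 without Azucena replicate 1). Of 9 histone genes, 33.3% were called, against 18.0% of all genes. H2B.4 was higher (41.1 ± 3.48 CPM in Azucena and 23.5 ± 2.44 CPM in Sarali, adjusted p = 0.00162) and H2B.10 (adjusted p = 0.00189) and H2B.7 (adjusted p = 0.00305) were lower. Histone H2B genes are near-identical copies, so reads may be assigned differently among them.

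RNA silencing genes had 3 of 15 higher and 2 lower (33.3% called, against 18.0% of all genes). DCL2A, a Dicer-like enzyme that makes small RNAs, had 18.0, 22.4, 16.7 and 18.4 CPM in Azucena and 58.5, 57.0, 39.3 and 61.3 CPM in Sarali (log2 fold change -1.52, SE 0.184, adjusted p = 6.97e-06). The RNA-dependent RNA polymerase RDR4 averaged 4.44 ± 1.40 CPM in Azucena and 1.32 ± 0.380 CPM in Sarali (adjusted p = 0.00197), and the Argonaute AGO18 1.88 ± 0.799 CPM in Azucena and 0.218 ± 0.212 CPM in Sarali (adjusted p = 0.00490). The Argonautes AGO1D (higher, adjusted p = 0.0321) and AGO1B (lower, adjusted p = 0.0390) lost the call without at least 1 library, at up to 0.0749 without Azucena replicate 2 and 0.126 without Sarali replicate 3. None of 31 ribosomal protein genes passed in edgeR or DESeq2, although 26 log2 fold changes were above 0 (list median 0.24) and 3 had an unadjusted p under 0.05, all higher.

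Disease resistance genes had 1 of 15 higher and 3 lower (26.7% called, against 18.0% of all genes). PIK6-NP, a gene of the Pik family of immune receptors, had 8.57, 6.72, 5.03 and 8.10 CPM in Azucena and 1.26, 1.31, 0.707 and 1.17 CPM in Sarali (log2 fold change 2.67, adjusted p = 1.82e-05). XB3, a ubiquitin ligase that binds the immune receptor XA21, had 47.3, 35.1, 35.3 and 34.9 CPM in Azucena and 134, 138, 147 and 168 CPM in Sarali (log2 fold change -1.94, SE 0.154, adjusted p = 4.29e-08). XA5, a subunit of general transcription factor IIA, averaged 65.2 ± 2.57 CPM in Azucena and 87.2 ± 8.65 CPM in Sarali (adjusted p = 0.0234, or 0.0811 without Sarali replicate 1). Pi21 was lower too (adjusted p = 0.0364, or 0.131 without Sarali replicate 2). Among 7 diterpenoid phytoalexin genes, KSL3 was lower at 0.169 ± 0.0760 CPM in Azucena and 0.802 ± 0.404 CPM in Sarali (adjusted p = 0.0124). Neither of 2 class III peroxidases and none of 4 leaf markers passed in either tool or had an unadjusted p under 0.05.

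Some named genes belong to no list. CCS1 averaged 12.2 ± 3.75 CPM in Azucena and 1.31 ± 0.637 CPM in Sarali (adjusted p = 1.87e-06), CBP1 11.9 ± 2.77 CPM in Azucena and 1.54 ± 0.532 CPM in Sarali (adjusted p = 7.39e-07), and ERG3 32.7 ± 4.66 CPM in Azucena and 12.6 ± 3.68 CPM in Sarali (adjusted p = 0.000665). The beta-glucosidase BGLU30 was lower, at 2.78 ± 1.80 CPM in Azucena and 13.4 ± 9.08 CPM in Sarali (adjusted p = 0.00632). The protease inhibitor RBBI3.3 had 9.81, 3.48, 5.54 and 48.4 CPM in Azucena and 0.257, 1.07, 3.16 and 0.0733 CPM in Sarali (adjusted p = 0.0350). Replicate 4 was far above the other Azucena libraries, and the call of RBBI3.3 ended without it (adjusted p = 0.177).

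More genes were detected in Azucena alone than in Sarali alone. A called gene was counted as detected in 1 cultivar only where that cultivar averaged at least 1 CPM and the 4 libraries of the other held fewer than 3 counts in all. By that rule 361 genes were detected in Azucena only, 182 of them protein coding and 118 long non-coding, against 27 in Sarali only. The build is that of a japonica cultivar, and a gene that it lacks could not be counted in either cultivar. How far this shaped the difference between these counts was not tested. The Azucena-only genes had a median of 4.27 CPM and a maximum of 72.9 CPM, and 74 of them reached 10 CPM. Of the 361 genes, 83 (23.0%) reached 1 CPM in Bala, 38 (10.5%) in Moddai Karuppan and 39 (10.8%) in Niyan Wee, and 247 stayed under 1 CPM in all 3.

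The count of Sarali-only genes rested on Azucena replicate 3. Without that library it was 117, against 359 in Azucena only. Of the 92 genes gained, 88 had at least 0.1 CPM in Azucena replicate 3, at 1.43 to 150% (median 17.2%) of the Sarali mean. Leaving out any other single library gave between 24 and 31 Sarali-only genes and between 358 and 387 Azucena-only genes. Of the 117 genes, 55 (47.0%) reached 1 CPM in Bala and 83 (70.9%) in each of Moddai Karuppan and Niyan Wee.

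Few of these genes carry a name. LOC107279007, a pseudogene, had 76.6, 88.1, 44.5 and 82.3 CPM in Azucena and none in Sarali, at least 3000-fold higher against a floor of 3 counts over the Sarali libraries. LOC4351746 (LOC_Os12g10330) had 41.4, 51.3, 37.3 and 52.8 CPM in Azucena, none in Sarali and 41.9 CPM in Bala. The laccase gene LAC21, of a family that oxidises lignin precursors, had 3.25, 1.92, 1.11 and 1.80 CPM in Azucena and none in Sarali (at least 79.9-fold higher, adjusted p = 0.000893). In the other direction, the long non-coding RNA LOC107278387 had no count in Azucena and 16.8, 15.2, 18.3 and 21.4 CPM in Sarali, at least 632-fold lower in Azucena. LOC4346944 had 0, 0, 2.98 and 0 CPM in Azucena and 14.5, 14.1, 10.1 and 15.2 CPM in Sarali, so that replicate 3 alone kept it off the Sarali-only list.

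**Figure D5:**
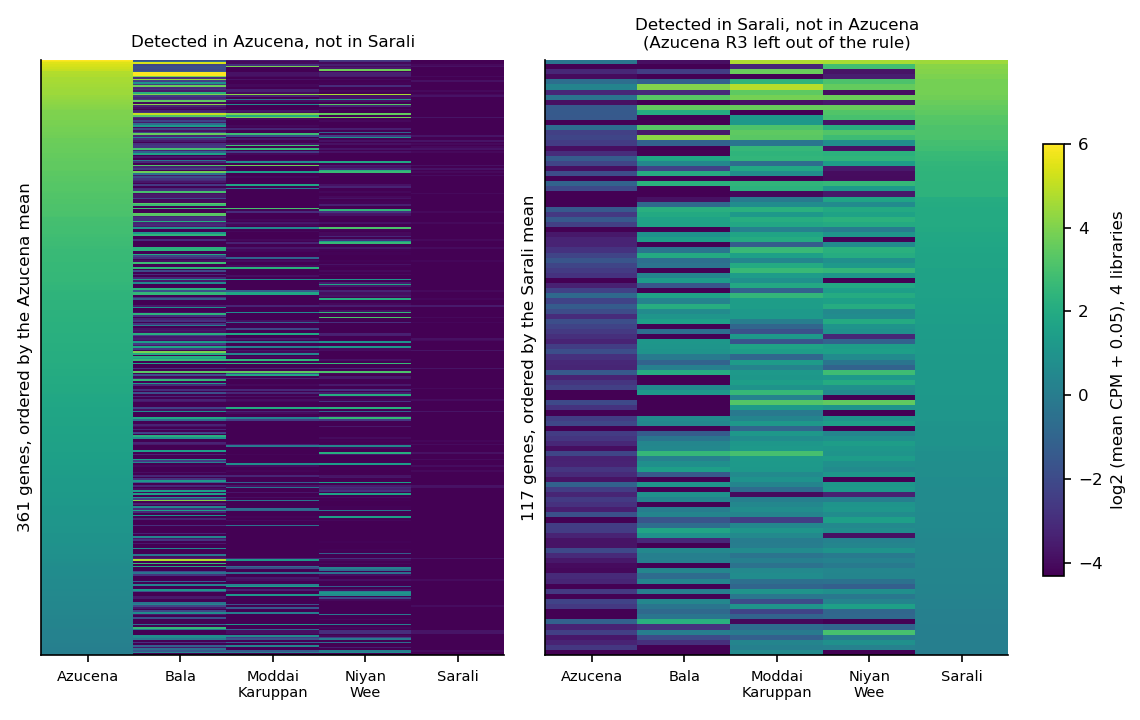
Mean levels, by cultivar, of genes detected in Azucena or Sarali only. Each row is a gene and each column a cultivar, coloured by log2 (mean CPM + 0.05) over 4 libraries, with Azucena replicate 3 included in its mean; the left panel holds the 361 genes detected in Azucena only and the right panel the 117 detected in Sarali only when that replicate is left out of the rule.

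Called genes were spread over all 12 chromosomes, from 14.2% of tested genes on chromosome 3 to 22.3% on chromosome 11, with 19.8% on chromosome 10 and 19.1% on chromosome 12. The chromosome was read from the locus identifier, which 19010 gene rows carry, and genes without one are not in these shares. Neighbours were taken from the gene order of the reference table, which is of another assembly. There were 15 runs of at least 5 neighbouring tested genes called in the same direction, 13 higher and 2 lower in Azucena. The longest had 8 genes on chromosome 12, from LOC_Os12g10200 to LOC_Os12g10410, and held LOC4351746. A run of 7 on chromosome 1, from LOC_Os01g71540 to LOC_Os01g71620, had log2 fold changes of at least 4.32. Some of its members had nearly the same level in each Azucena library. LOC9269629 averaged 27.8 ± 5.27 CPM in Azucena and LOC4326058 27.2 ± 5.29 CPM. LOC4326056 averaged 5.23 ± 0.801 CPM in Azucena and LOC107276921 5.24 ± 0.804 CPM. Such members may not be independent, so this run may hold fewer than 7 separate differences. Another run of 7 on chromosome 11 held LAC21, and a run of 5 on chromosome 10, with smallest log2 fold change 1.62, held GSTU6. The lower runs lay on chromosome 9, from LOC_Os09g14019 to LOC_Os09g14410, and on chromosome 11, from LOC_Os11g34940 to LOC_Os11g34980. Neighbouring genes of 1 family can share reads, and the part of that in these runs was not tested.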

How the data were processed

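Roots of 5 rice cultivars were profiled by RNA-seq with 4 libraries each. The authors deposited a table of expected counts per gene (estimated read counts), in which 7.58% of the values are fractional and replicates are separate. Per the submitters' processing notes, HISAT2 (no version given) and edgeR 3.36.0 were used with build IRGSP-1.0, in no stated order. Not given in the sources used here are the counting tool, the annotation and the treatment of reads that map to several places. Per the labels' protocols, RNA was extracted with TriReagent and libraries were made with a stranded total RNA kit with ribosomal RNA depletion, whereas the molecule label reads polyA RNA. Ribosomal RNA took between 30.9 and 64.5% of counts in the 8 libraries. The 2 rows that name no gene were left out.

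The deposited values were rounded to whole counts and tested with edgeR 4.0.16 in R 4.3.3 (quasi-likelihood test, TMM scaling, filterByExpr with a minimum count of 10, which removed 12 genes). The unit expected when the tests were chosen was whole counts, and the test was kept. All 20 libraries entered 1 fit with a mean per cultivar, and the contrast was Azucena minus Sarali, with Benjamini-Hochberg adjustment over the 21225 genes and a threshold of 0.05. Levels are TMM-scaled CPM (counts scaled to the library size), given as mean ± SD over 4 libraries. They are not divided by gene length, so levels of different genes are not compared. Intervals and floors cover counting error only. Each SE is the absolute log2 fold change divided by the square root of the test's F statistic. Where a cultivar held few counts, both the fold and this SE depend on the prior count. DESeq2 1.42.0 and the other settings of the closing section served as alternatives. Where 1 library is named whose absence ended a call, the call often ended without other libraries too.

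Named genes are, among genes with a name, those called without overlap between the groups that had the 12 highest and 12 lowest fold changes where the higher cultivar averaged 5 CPM or more, the 6 smallest p in each direction at 10 CPM or more in both, all aquaporins, and up to 4 members with the smallest p from each of 33 lists. Further members of the lists that passed, and the genes without a name, were picked with their values in view. The members and lists were chosen with earlier results of these data known. Gene names come from the reference table matched on locus or accession (20839 of 21237 genes).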

Additional observations from a re-analysis of the deposited data

Results flagged for a closer look

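In 15 of the 322 groups of 4 libraries examined, a library lay far from the other 3, with a gap to the nearest of them above Dixon's 95% critical value, which chance passes in about 1 of 20 groups. Of these, 6 were in Azucena replicate 3. That library was high for MADS56 at 3.70 CPM (others 0 to 0.0879), BADH2 at 28.3 CPM (others 14.8 to 16.6), CASP1 at 79.3 CPM (others 18.7 to 28.8), ORR5 at 0.331 CPM (others 0), CYP90B2 at 51.9 CPM (others 13.0 to 18.3) and PP2C29 at 4.30 CPM (others 0.484 to 0.528).

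In the other Azucena libraries, RBBI3.3 reached 48.4 CPM in replicate 4 (others 3.48 to 9.81), XB3 47.3 CPM in replicate 1 (others 34.9 to 35.3) and PIP2-2 was low at 53.1 CPM in replicate 2 (others 66.5 to 69.0). In Sarali, replicate 3 was high for EXPA32 at 0.0832 CPM (others 0) and for CIPK17 at 7.53 CPM (others 3.77 to 4.29), and low for PP2C29 at 3.74 CPM (others 7.51 to 8.16). Sarali replicate 2 was low for CIPK24 at 33.3 CPM (others 38.2 to 38.7) and for PP2C15 at 5.97 CPM (others 7.32 to 7.55), and Sarali replicate 4 was high for CSLH1 at 105 CPM (others 81.1 to 84.3). The causes were not tested.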

How the results depend on the processing

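The number of genes called was 3122 with only the 8 libraries, 3825 with pool as a covariate, 3910 with ribosomal RNA share as a covariate, 3835 with RLE scaling, 4638 with DESeq2, 3835 with no filter, 3311 with a minimum count of 50, 3824 without rounding, 3820 without ribosomal RNA genes, 3075 after thinning to the smallest library, 3957 with Sarali replicate 3 and Niyan Wee replicates 2 and 3 left out, and 3084 to 3698 with 1 of the 8 libraries left out. With 2 libraries per cultivar it was 1889 (1129 higher, 760 lower) in pool P1 and 1446 (909 higher, 537 lower; 1366 at 2-fold or more) in pool P2. Aquaporin calls were 2 with DESeq2 and 0 in pool P1, and 1 in the other alternatives. Sarali-only genes were 77 when up to 10 counts were allowed, and 24 to 117 with 1 library left out. The ribosomal RNA difference ranged from -11.0 to 0.22 percentage points with 1 library left out. Of the 135 calls of genes named in the text, 82 held in every alternative but the single pools. With only the 8 libraries 32 ended, after thinning 20, in pool P1 82 and in pool P2 77, and none reversed.

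The labels call the replicate number "batch rep" and do not say that equal numbers mark a shared batch, and they were not treated as pairs. Same-numbered Azucena and Sarali libraries had correlations of deviations of 0.21, -0.17, 0.01 and 0.23. With the replicate block 3728 genes were called, and not every library correlated best with its own number.

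Log2 fold changes that turned belong to genes that did not pass. In pool P1 they were -0.14 for TIP2-1, -0.87 for NIP2-1, 0.02 for SIP2-1, -0.07 for TIP4-1 and -0.58 for Lsi2. In pool P2 they were 0.10 for PIP1-1, 0.74 for PIP1-3, 0.01 for PIP2-6 and 0.43 for PIP2-5. With Sarali replicate 3 and Niyan Wee replicates 2 and 3 left out, TIP2-1 was at -0.10 and NIP2-1 at -0.14. With 1 library left out the lowest and highest values were -0.11 and 0.81 for TIP2-1, -0.20 and 0.06 for PIP1-1, -0.66 and 0.34 for NIP2-1, -0.21 and 0.12 for SIP2-1, -0.47 and 0.01 for PIP2-6, -0.03 and 0.38 for TIP4-1, -0.57 and 0.04 for NIP2-2, -0.40 and 0.02 for PIP2-1, and -0.23 and 1.24 for Lsi2. The cause was not tested. Depth limits genes near 1 CPM, where few counts decide a call.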

Other observations

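For BURP02 and CBP1 Bala, the other cultivar long used beside Azucena in rice genetics, lay near the Azucena level and not near Sarali. BURP02 averaged 66.8 CPM in Bala, 1.46 CPM in Moddai Karuppan and 0.281 CPM in Niyan Wee, beside 70.5 CPM in Azucena and 1.18 CPM in Sarali. CBP1 averaged 18.1 CPM in Bala, 1.14 CPM in Moddai Karuppan and 2.07 CPM in Niyan Wee, beside 11.9 CPM in Azucena and 1.54 CPM in Sarali. These genes were picked after their values were seen, and the levels are a description with no test.

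For SDH7, RMSOD1 and XB3 the other cultivars lay near Sarali. SDH7 averaged 9.82 CPM in Bala, 5.22 CPM in Moddai Karuppan and 5.80 CPM in Niyan Wee, beside 103 CPM in Azucena and 5.07 CPM in Sarali. RMSOD1 averaged 40.2 CPM in Bala, 47.6 CPM in Moddai Karuppan and 33.8 CPM in Niyan Wee, beside 102 CPM in Azucena and 31.2 CPM in Sarali. XB3 averaged 126 CPM in Bala, 162 CPM in Moddai Karuppan and 139 CPM in Niyan Wee, beside 38.1 CPM in Azucena and 147 CPM in Sarali.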
